A study of Eutrema salsugineum with 41 samples.

Results

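The genes described here are the 200 genes of *Eutrema salsugineum* whose transcript levels varied least over 10 plants, of 11982 genes that could be chosen and 26352 genes in the expression table. They were chosen by their measured values: every library was scaled to TPM, so that its values sum to 1000000, genes with a mean under 10 TPM and the 200 genes with the highest mean were left out, and the 200 genes with the lowest standard deviation (SD) of log2(TPM + 1) over the 10 libraries were kept. Their steadiness is therefore given by the choice, and the levels, SDs and ratios below describe it without a test.

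RNA was sequenced from cauline leaves of 10 individual plants of the Shandong ecotype, 9 AtCMT3 plants and 1 wild-type plant. The AtCMT3 plants carry the genomic sequence of *CMT3* from *Arabidopsis thaliana* under its native *A. thaliana* promoter, introduced by floral dip and selected with BASTA. They come from 3 transformed lineages: AtCMT3-L1 in the T3 to T5 generations, AtCMT3-L2 in the T3 to T6 generations, and AtCMT3-L3 with T2 and T2b, both of generation T2, while wild type is the untransformed ecotype. Each plant gave 1 library, plants of a lineage are related by descent, and floral dip can leave several insertions that segregate, so differences between plants cannot be checked against replicates. The deposited values carry neither read counts nor depth. *AtCMT3* itself stood at 5.39 to 372 TPM in the AtCMT3 plants, lowest in AtCMT3-L2T6, and at 0.225 TPM in wild type, and between 19270 and 20122 genes were above 0 per library. By their sums, 5 libraries (the T3 and T4 plants of AtCMT3-L1, those of AtCMT3-L2, and wild type) hold FPKM values and the other 5 hold TPM values, so the unit also separates plants by generation. Per the study's sequencing statistics, each library with TPM values also had more uniquely aligned reads than any library with FPKM values, so unit and depth cannot be told apart.

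Steadily expressed genes are often called housekeeping genes, because their products serve tasks that most cells share, such as RNA processing, vesicle traffic and protein turnover, and such genes are used as references when the expression of others is measured. CMT3 is a plant DNA methyltransferase that methylates cytosines in the CHG context (H is A, C or T), mainly in repeats. *E. salsugineum* has lost *CMT3* and lacks gene body methylation, a CG methylation within transcribed genes that other plants carry, above all on genes expressed steadily at moderate levels.

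The 200 genes had SDs between 0.038 and 0.113 on the log2 scale, with a median of 0.10. Over all 11982 genes the median SD was 0.32, and the middle 50% of genes lay between 0.22 and 0.53. In TPM, the highest library exceeded the lowest by 1.097-fold to 1.36-fold among the 200 genes, with a median of 1.26-fold, against a median of 2.04-fold over the 11908 genes above 0 in every library. A ratio below 1.3-fold was found for 166 of the 200 genes, and for 264 genes in all (2.20%). The coefficient of variation had a median of 7.45% among the 200 genes and 23.0% over all genes that could be chosen.

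The steadiest gene was Thhalv10020102m, the ortholog of *KIN13A*, which encodes a kinesin that acts on microtubules. It stood between 18.1 and 19.9 TPM in the AtCMT3 plants (median 19.0) and at 18.3 TPM in wild type, with an SD of 0.038. Its values in the AtCMT3 plants enclosed the wild-type value. The second, Thhalv10005730m, lay between 12.6 and 14.1 TPM in the AtCMT3 plants (median 13.1) and at 13.1 TPM in wild type. Thhalv10002612m lay between 12.0 and 13.8 TPM in the AtCMT3 plants (median 12.9) and at 12.1 TPM in wild type. Thhalv10013121m was expressed more strongly, at 48.8 to 55.4 TPM in the AtCMT3 plants (median 51.4) and 53.7 TPM in wild type. These genes, for which no name was at hand, also gave wild type a place within the range of the AtCMT3 plants.

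The next 6 in order were Thhalv10000834m, Thhalv10012650m, Thhalv10014121m, Thhalv10024567m, Thhalv10001554m and Thhalv10024710m, with SDs from 0.060 to 0.070. Thhalv10000834m lay between 23.4 and 27.1 TPM in the AtCMT3 plants (median 24.3) and at 25.5 TPM in wild type. Thhalv10001554m, the most strongly expressed of the 10 steadiest, lay between 69.8 and 81.3 TPM in the AtCMT3 plants (median 74.3) and at 75.1 TPM in wild type. Thhalv10024567m was the weakest, at 9.19 to 10.8 TPM in the AtCMT3 plants (median 10.3) and 9.79 TPM in wild type. In the other 3 of these 6 genes the wild-type value also lay within the range of the AtCMT3 plants, and none of the 10 steadiest genes varied by more than 1.17-fold. No library was the highest in more than 2 of these 10 genes, while the lowest value lay in a plant of AtCMT3-L2 for 7 of them. Over all genes that could be chosen, AtCMT3-L2T3, AtCMT3-L2T4, AtCMT3-L2T5 and AtCMT3-L2T6 were lowest for 6.38%, 6.40%, 28.4% and 9.96%. No trait of the lineage is read from so few genes.

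The limit of 200 did not fall in a gap. The last 3 genes kept, Thhalv10018210m, Thhalv10010651m and Thhalv10018923m, had SDs of 0.1133, 0.1133 and 0.1134. The nearest genes left out, Thhalv10013243m, Thhalv10011254m and Thhalv10016929m, had SDs of 0.1134, 0.1135 and 0.1135.

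The steady genes were moderately expressed, with a median of 24.0 TPM and a range from 10.04 to 287 TPM, beside a median of 30.0 TPM over all 11982 genes. Of the 200 genes, 129 (64.5%) lay below that median, and 7 exceeded 100 TPM. When all genes were divided by mean level into 10 bins of equal size, the 7 lower bins held between 19 and 36 of the 200 genes each, and the 3 upper bins, above 49.4 TPM, held 12, 11 and 5. The median SD over all genes was between 0.29 and 0.32 in the 7 lower bins and 0.33, 0.37 and 0.46 in the 3 upper bins, so strongly expressed genes as a whole varied more.

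**Figure D1:**
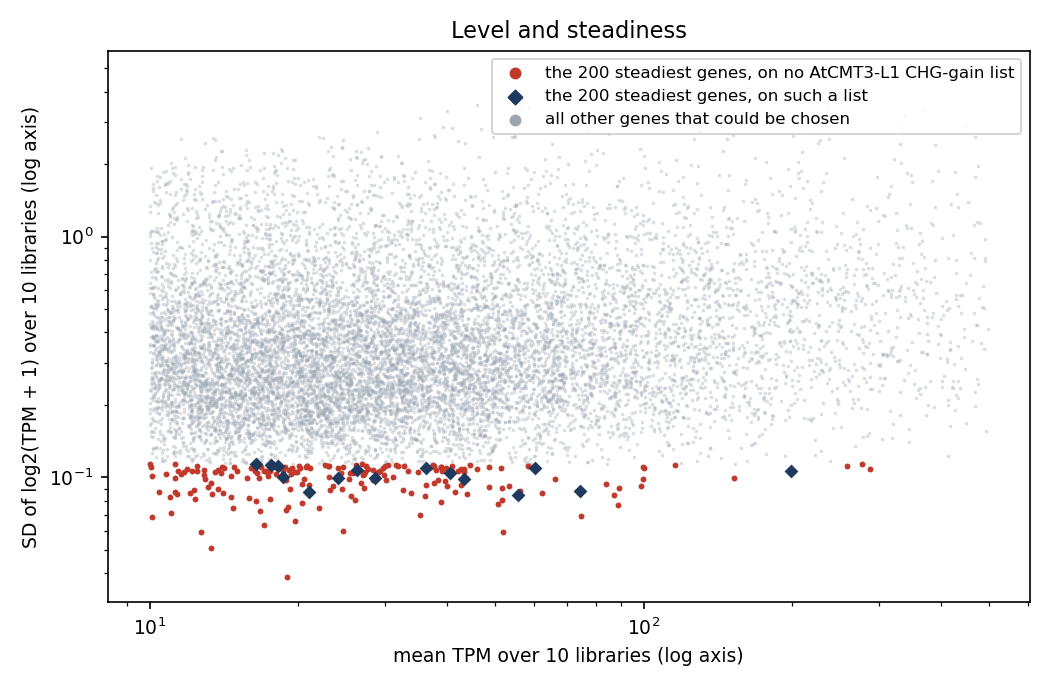
SD of log2(TPM + 1) over the 10 libraries against mean TPM, both on log axes, 1 point per gene for the 200 steadiest genes (red, and blue diamonds for the 15 on a CHG-gain list of AtCMT3-L1) and for all other genes that could be chosen (grey). The 200 genes form the lower edge of the cloud, below 0.1134, and thin out above about 100 TPM, where 7 of them lie.

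The most strongly expressed of the 200 was Thhalv10017045m, the ortholog of *SFGH*, an S-formylglutathione hydrolase of formaldehyde detoxification, at 252 to 305 TPM in the AtCMT3 plants (median 298) and 293 TPM in wild type. Thhalv10019020m followed, at 226 to 298 TPM in the AtCMT3 plants (median 287) and 272 TPM in wild type. Thhalv10021838m lay at 232 to 284 TPM in the AtCMT3 plants (median 246) and 277 TPM in wild type. These strongly expressed genes were not among the steadiest of the 200, with SDs of 0.108 to 0.113. At the other end, Thhalv10018923m, Thhalv10003796m and Thhalv10019965m averaged 10.04 to 10.12 TPM and would leave the choice under a slightly higher minimum.

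The 200 genes moved little in every library, and in the 3 libraries where their median moved most, it moved in the direction of the table as a whole. Relative to its own mean, the median gene of the 200 was 0.09 higher on the log2 scale in AtCMT3-L3T2b, 0.06 higher in AtCMT3-L2T3 and 0.06 lower in AtCMT3-L2T5, and within 0.04 in the other libraries. The median over all genes that could be chosen was 0.18 higher in AtCMT3-L3T2b, 0.13 higher in AtCMT3-L2T3 and 0.19 lower in AtCMT3-L2T5. A scale set by the sum of a library thus left the median gene shifted by more than 0.1 in these 3 libraries, and relative to that shift the median of the 200 genes was 0.09 lower in AtCMT3-L3T2b, 0.07 lower in AtCMT3-L2T3 and 0.12 higher in AtCMT3-L2T5. In wild type the median of the 200 genes was 0.02 below their own means while that of all genes was 0.08 above. The signs also differed in AtCMT3-L1T3 (-0.01 for the 200 genes, 0.05 for all), AtCMT3-L2T4 (0.01 and -0.06) and AtCMT3-L3T2 (-0.01 and 0.04).

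AtCMT3-L3T2b was the highest library for 60 of the 200 genes and AtCMT3-L2T3 for 41, and AtCMT3-L2T5 was the lowest for 50. Over all genes these libraries took 22.8%, 16.5% and 28.4% of those places. The median distance from the own mean was 0.05 to 0.09 among the 200 genes, and 0.19 to 0.29 over all genes. After every library was centred on its median gene, the 200 genes had a median SD of 0.11 and all genes one of 0.31. All 200 genes were then still below the median of all genes and 153 were below 0.14, under which 10% of all genes lie, but only 57 were again among the 200 steadiest. Centring used the same values that chose the 200 genes, so their low SDs after it largely follow from the choice. Which genes made up the steadiest 200 depended on the scale.

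**Figure D2:**
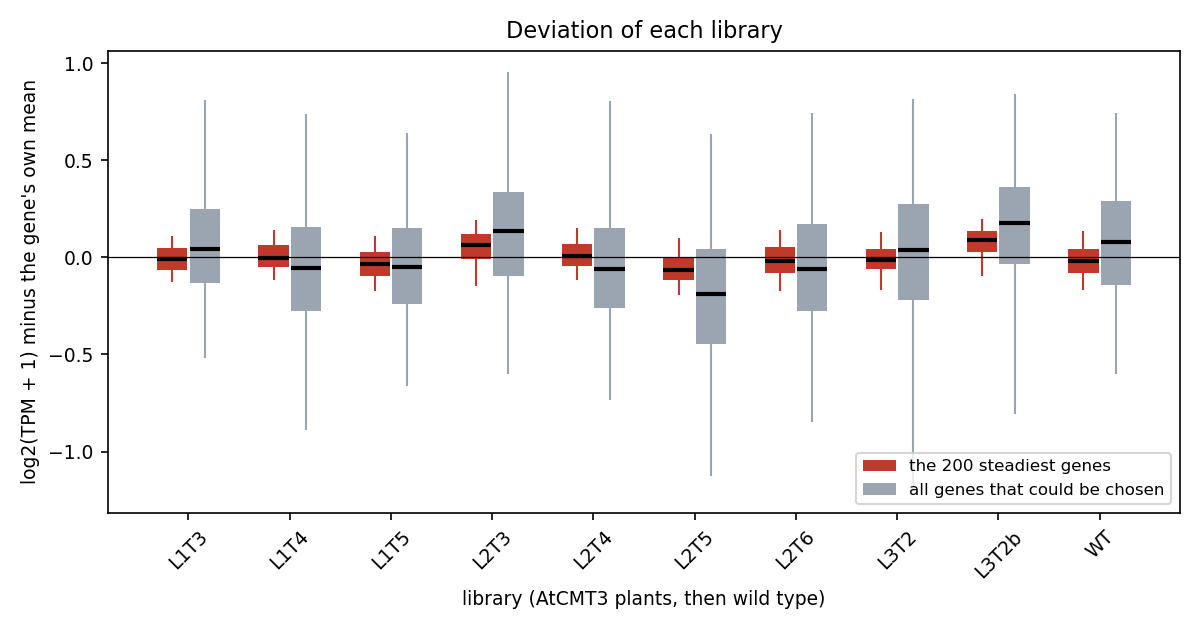
Deviation of log2(TPM + 1) from the gene's own mean in each library, AtCMT3 plants then wild type, for the 200 steadiest genes (red) and all genes that could be chosen (grey). Boxes span the middle 50% of genes, thin lines run from the 5th to the 95th percentile and black bars are medians, which for all genes lie at 0.18 in AtCMT3-L3T2b and -0.19 in AtCMT3-L2T5, and for the 200 genes at 0.09 and -0.06.

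For every one of the 45 pairs of libraries the median difference between libraries was smaller among the 200 genes than over all genes. The same libraries chose the genes, so small differences follow from the choice. It was smallest between AtCMT3-L1T4 and AtCMT3-L2T4, at 0.06 among the 200 genes and 0.13 over all genes. It was largest between AtCMT3-L2T5 and AtCMT3-L3T2b, at 0.15 among the 200 genes and 0.53 over all genes. The same pairs were thus the closest and the farthest for the steady genes and for the table as a whole.

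Against wild type, none of the 200 genes reached a log2 fold change of 2 in either direction in any of the 9 AtCMT3 plants, and their log2 fold changes lay between -0.40 and 0.41. Of the 11973 genes that could be chosen and were above 0 in wild type, 1362 (11.4%) passed that cutoff in at least 1 plant, a count that the choice of the 200 genes excludes by its construction. All 9 AtCMT3 plants exceeded wild type for 24 of the 200 genes (background 6.42% of all genes) and all 9 lay below wild type for 13 genes (background 7.95%). The remaining 163 genes had wild type within the range of the AtCMT3 plants. These comparisons share the 1 wild-type library and the values that chose the genes, so nothing is read from them. The 5 libraries that hold TPM values were all above or all below the 5 that hold FPKM values for 2 of the 200 genes, 1 in each direction (background 1.47%).

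Steadiness was then measured in libraries that had taken no part in the choice. When the 200 steadiest genes were chosen in 9 libraries and looked up in the library left out, their median distance from the mean of the 9 was between 0.08 (AtCMT3-L1T4 and AtCMT3-L2T4) and 0.17 (AtCMT3-L3T2b), against 0.21 to 0.32 over all genes that could be chosen. The median of the chosen genes was the smaller in each of the 10 libraries. Between 75.5% and 96.5% of the chosen genes lay within 0.25 of that mean, against 40.4% to 56.5% of all genes. With wild type left out, the median distance was 0.11 among the genes chosen in the 9 AtCMT3 plants and 0.25 over all genes. The exceptions were wide in single genes, up to 2.97 in AtCMT3-L3T2b. Plants of a lineage are related by descent, so a library left out was not fully independent of the other 9. AtCMT3-L1T4 and AtCMT3-L2T4, with the smallest median distances, were also the closest pair of libraries over all genes, at 0.13.

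**Figure D3:**
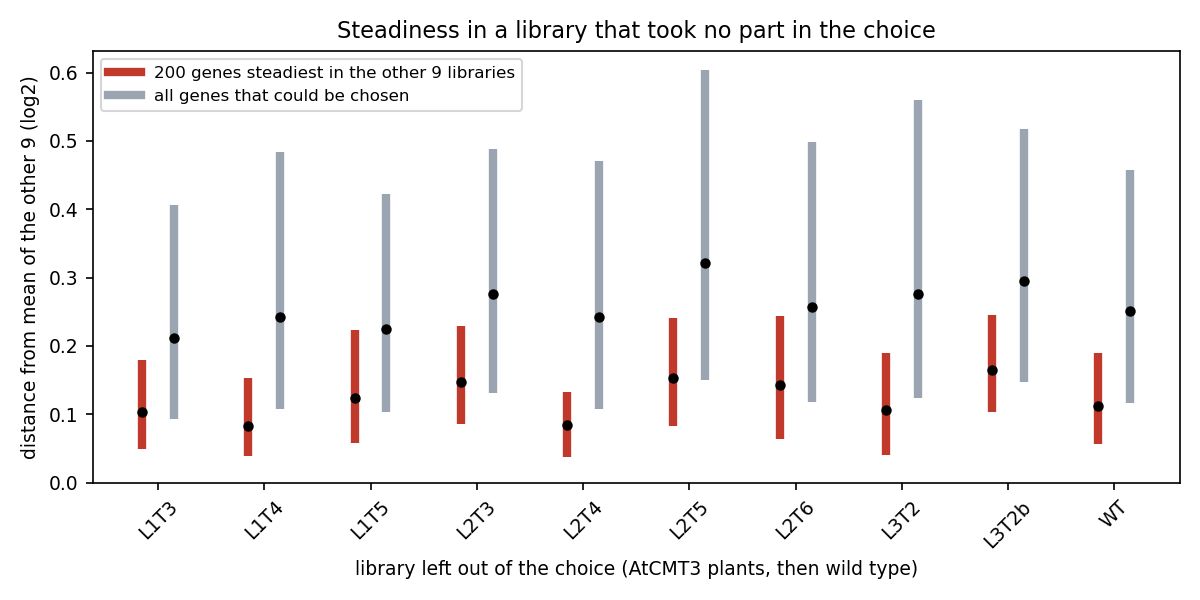
Distance of log2(TPM + 1) in the library left out from the mean of the other 9 libraries, for the 200 genes steadiest in those 9 (red) and all genes that could be chosen (grey), with AtCMT3 plants then wild type on the horizontal axis. Bars span the middle 50% of genes and points are medians, between 0.08 and 0.17 for the chosen genes and between 0.21 and 0.32 for all genes.

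A harder split used the 2 units. The 200 genes steadiest in the 5 libraries with FPKM values had a median SD of 0.06 in those libraries and 0.19 in the 5 libraries with TPM values, where all genes had 0.33. The 200 genes steadiest in the libraries with TPM values had 0.07 there and 0.17 in the libraries with FPKM values, where all genes had 0.28. In the other libraries, 91.5% and 84.5% of these genes lay below the median of all genes. Among the 200 lowest there, out of 11981 and 11864 genes, were 14 and 15 of them. The 2 choices, each of 200 genes out of these numbers, shared 13 genes. Each choice shared 50 or 55 genes with the 200 genes chosen over all 10 libraries.

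An *A. thaliana* ortholog was at hand for 39 of the 200 genes, from a table that covers only a part of the genes that gain CHG methylation, and 30 of these orthologs have a function that can be named. Over all genes that could be chosen, the table gave an ortholog for 1324 of 11982. The study describes the table as a list of genes that gain CHG methylation, so the 39 genes are among those it names as such. No share of a function is read from so partial a table. Among genes of RNA processing and decay were the orthologs of *XRN3* and *XRN4*, the exoribonucleases that degrade RNA from its 5′ end in the nucleus and in the cytoplasm. *XRN3* (Thhalv10018062m) lay at 37.1 to 47.2 TPM in the AtCMT3 plants (median 42.1) and 40.3 TPM in wild type. *XRN4* (Thhalv10023239m) lay at 24.1 to 29.0 TPM in the AtCMT3 plants (median 26.4) and 22.5 TPM in wild type, and was lowest in wild type. *CLO* (Thhalv10006688m), a GTPase of the spliceosome, lay at 33.9 to 44.4 TPM in the AtCMT3 plants (median 40.8) and 42.1 TPM in wild type. *TADA* (Thhalv10018020m), which edits a chloroplast transfer RNA, averaged 28.3 ± 1.98 TPM (SD over the 10 plants).

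Genes of transcription and chromatin included *VIP6* (Thhalv10002377m), a subunit of the PAF1 complex that travels with RNA polymerase, at 35.6 to 43.5 TPM in the AtCMT3 plants (median 40.0) and 36.8 TPM in wild type. *TAF6* (Thhalv10007291m), a subunit of the general transcription factor TFIID, lay at 11.1 to 13.4 TPM in the AtCMT3 plants (median 12.3) and 13.2 TPM in wild type. *EPL1* (Thhalv10007658m) encodes an enhancer of polycomb-like protein of a histone acetyltransferase complex, and *JMJ24* (Thhalv10006723m) a JmjC domain protein. *JMJ24* lay at 17.4 to 21.3 TPM in the AtCMT3 plants (median 18.8) and 16.5 TPM in wild type, again with wild type as the lowest library. *PHL* (Thhalv10018006m), which acts in flowering, averaged 17.5 ± 1.33 TPM.

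Genes of the nuclear envelope and its pores were *CRWN1* (Thhalv10018034m), a component of the plant nuclear lamina, at 43.6 ± 3.06 TPM, *SAR1* (Thhalv10006552m), a nucleoporin, at 15.7 ± 1.15 TPM, and *RAE1* (Thhalv10018796m), a factor of mRNA export, at 17.6 ± 1.40 TPM (mean ± SD over the 10 plants). Beside *KIN13A*, genes of the cytoskeleton were *SCAR2* (Thhalv10016142m) and *NAP1* (Thhalv10016146m), whose products belong to the SCAR/WAVE complex, which starts new actin branches. *SCAR2* averaged 17.0 ± 1.36 TPM. *NAP1* lay at 19.1 to 21.1 TPM in the AtCMT3 plants (median 20.7) and 16.3 TPM in wild type, a wild-type value below all AtCMT3 plants. In membrane traffic, *SKD1* (Thhalv10016678m), an ATPase that takes apart the endosomal sorting machinery, averaged 99.7 ± 7.02 TPM, and *TNO1* (Thhalv10006539m), a protein of the trans-Golgi network, 18.6 ± 1.36 TPM.

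Protein turnover was represented by *UBP5* (Thhalv10016401m), a ubiquitin protease and the steadiest named gene after *KIN13A* (SD 0.071), at 10.02 to 11.9 TPM in the AtCMT3 plants (median 11.2) and 10.9 TPM in wild type. *UPL6* (Thhalv10019984m), a ubiquitin ligase, averaged 26.0 ± 2.02 TPM, and *BRIZ1* (Thhalv10004093m), a RING-type protein needed for germination, 11.9 ± 0.983 TPM. In signalling, *YDA* (Thhalv10023253m), a kinase kinase kinase of stomatal and embryo development, averaged 21.0 ± 1.42 TPM, *DRG1* (Thhalv10007806m), a GTP-binding protein, 43.9 ± 2.68 TPM, and *PS1* (Thhalv10007596m), a presenilin, 11.3 ± 0.736 TPM. Enzymes included *SFGH*, *SOX* (Thhalv10022262m), a sulfite oxidase of peroxisomes, a mitochondrial complex I subunit (Thhalv10002002m, 62.2 ± 3.72 TPM), the Nudix hydrolase *NUDT3* (Thhalv10018131m, 40.0 ± 2.65 TPM), the mannosyltransferase *ALG12* (Thhalv10007459m), the glycosidase *PUMY* (Thhalv10011639m, 23.5 ± 1.56 TPM) and *TBL13* (Thhalv10022706m, 13.7 ± 1.11 TPM). *PUMY* lay at 20.7 to 24.9 TPM in the AtCMT3 plants (median 23.2) and 26.3 TPM in wild type, a wild-type value above all AtCMT3 plants. The levels of the 30 named genes ran from 11.1 TPM for *UBP5* to 287 TPM for *SFGH*.

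The study normalised its qRT-PCR measurements of *AtCMT3* to *TUB4* (Thhalv10003210m), a beta-tubulin gene, which is not among the 200 genes. It stood at 57.3 to 171 TPM in the AtCMT3 plants (median 76.2) and at 70.3 TPM in wild type, with an SD of 0.41 and place 7618 of 11982. A single library set this SD: *TUB4* reached 171 TPM in AtCMT3-L2T6 and lay between 57.3 and 83.7 TPM in the other 9 libraries, 1.22 lower on the log2 scale by their mean. Without AtCMT3-L2T6 its SD was 0.15 and its place 910. AtCMT3-L2T6 is also the AtCMT3 plant with the lowest *AtCMT3* level, and that plant gave 1 library. Reference genes were matched through the same partial table of orthologs, so those outside it could not be found, whatever their expression. Of 26 reference genes listed by their *A. thaliana* names, only *MON1* (Thhalv10016386m), also called *SAND*, could be matched. It lay at 31.2 to 42.4 TPM in the AtCMT3 plants (median 37.4) and 33.3 TPM in wild type, with an SD of 0.16 and place 1144, outside the 200.

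The methylation data offered a property that the choice of the 200 genes had not used. CHG-gain genes, as the study defines them, are nearly unmethylated in wild type and gain CHG methylation in an AtCMT3 plant, and the lists of AtCMT3-L1T1 to AtCMT3-L1T6 together name 703 genes, of which 399 could be chosen. Of the 200 steadiest genes, 15 were on at least 1 of these lists, which is 7.5% (exact 95% interval 4.26% to 12.1%), against a background of 3.33% over all genes that could be chosen. Of the other genes, 384 were on a list, or 3.26% (2.95% to 3.60%). Set against genes of like level the comparison was nearly the same: at the share of all other genes in the same bin of mean TPM, 6.74 of the 200 genes would be on a list, so the observed number was 2.23 times as high (1.26 to 3.58). The intervals cover counting error only. The 15 genes are 2.13% of the 703 listed genes, or 3.76% of the 399 that could be chosen.

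The counts differed between the plants of the lineage. Of the 200 genes, 0 were on the list of AtCMT3-L1T1 (background 0.359%) and 0 on that of AtCMT3-L1T2 (background 0.517%), for each of which the exact 95% upper limit is a share of 1.83%. For the later generations, 6 were on the list of AtCMT3-L1T3 (background 1.13%), where genes of like level gave 2.38, and 4 on the list of AtCMT3-L1T4 (background 1.12%), where they gave 2.27. On the list of AtCMT3-L1T5 were 9 (background 1.94%), beside 4.02 from genes of like level, and on that of AtCMT3-L1T6 were 14 (background 2.86%), beside 5.80. The lists of a lineage overlap, so these are not separate observations, and the lists themselves grew over the generations. For AtCMT3-L1T3 and AtCMT3-L1T4, the intervals of the ratio, 0.93 to 5.40 and 0.48 to 4.44, included 1. A further plant of the lineage, AtCMT3-L1T2b, has a list of its own with 8 of the 200 genes (background 1.69%), beside 3.53 from genes of like level, a ratio of 2.27 whose interval, 0.99 to 4.38, included 1. Of these 8 genes, 7 were among the 15, so that listed steady genes also occurred in a plant of generation T2. The study filtered genes for coverage separately for this plant and for AtCMT3-L1T1 to AtCMT3-L1T6. The lists can therefore rest on different sets of genes, and no difference between generations is read from them.

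The excess of listed genes did not hold under several other ways to choose 200 steady genes. With the median absolute deviation in place of the SD, 5 of 200 genes were on a list, 0.70 times the number from genes of like level, and with libraries centred on their median gene, 8 were, a ratio of 1.14. The choice within the libraries with TPM values and that within the libraries with FPKM values each held 6, with ratios of 0.89 and 0.88. Leaving out 1 library gave 10 to 16 genes and ratios of 1.46 to 2.41, lowest without AtCMT3-L2T5 (1.46) and without AtCMT3-L2T6 (1.48). The next 200 genes by SD held 8 listed genes (4.00%) and the following groups of 200 up to place 2400 between 0 and 11. Over the whole range of SD, among the 5991 genes of lower SD, 250 (4.17%) were on a list, and among the 5991 of higher SD, 149 (2.49%). In 10 bins of SD the share was 4.00% in the steadiest bin and 3.92%, 4.42%, 4.67% and 3.84% in the next 4. It was 1.42% in the bin of highest SD. Bins of this width do not show the higher share at the steadiest end. The steadiest bin holds the 200 genes, of which 7.5% were listed, and the share was 5.75% in the 400 and 4.75% in the 800 steadiest genes. The median SD was 0.27 for the 399 listed genes and 0.33 for the other 11583, at median levels of 30.4 and 30.0 TPM.

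**Figure D4:**
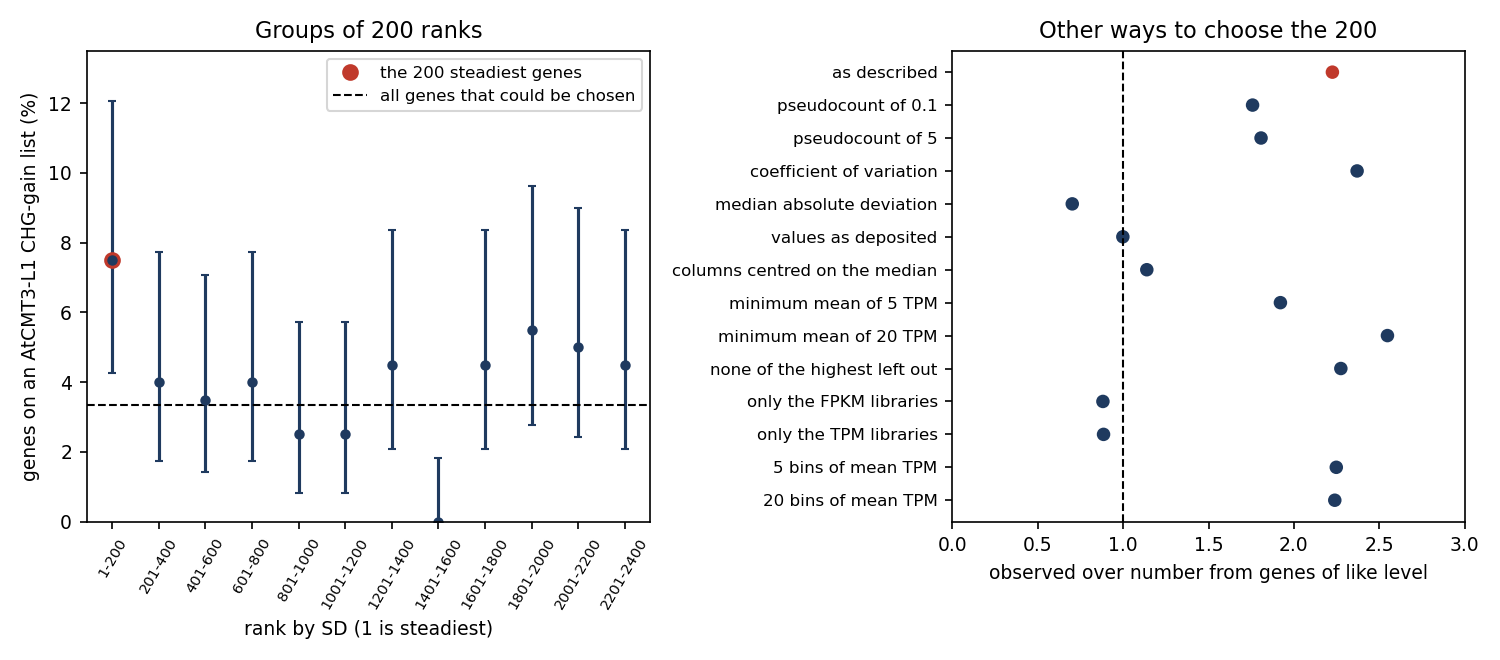
Left, share of genes on at least 1 CHG-gain list of AtCMT3-L1T1 to AtCMT3-L1T6 in successive groups of 200 genes ordered by SD, with exact 95% intervals, and the share over all genes that could be chosen as a dashed line (3.33%). Right, number of listed genes among the 200 chosen over the number from genes of like level (1 marked by the dashed line), as described and under other choices except leaving out single libraries and dropping the minimum of the mean: the ratio of 2.23 is 1.76 to 2.55 for other pseudocounts, minima and bins, for the coefficient of variation and with none of the highest left out, and 0.70 to 1.14 under 5 others.

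Lists of other lineages were at hand whole for 4 plants. Of the 200 genes, 12 were on the list of AtCMT3-L2T1 (background 3.11%), 7 on that of AtCMT3-L6T2 (background 1.59%), 3 on that of AtCMT3-L5T2 (background 0.826%) and 0 on that of AtCMT3-L2T6 (background 0.292%). Genes of like level gave 6.41, 3.33, 1.72 and 0.61. The intervals of the first 3 ratios, 0.98 to 3.20, 0.85 to 4.25 and 0.36 to 5.01, all included 1, and with 0 genes on the list of AtCMT3-L2T6 no ratio is read. The study filtered coverage for AtCMT3-L5T2 and AtCMT3-L6T2 separately from AtCMT3-L1T1 to AtCMT3-L1T6, so these lists can rest on different sets of genes. A gene can be listed only if it has enough coverage and little methylation in wild type. Which genes met this was not analysed here, nor were gene lengths, and their part in these shares was not tested.

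Among the 15 listed genes, 4 were on each of the lists of the T3 to T6 generations: *EPL1*, *XRN4*, Thhalv10028463m and Thhalv10024360m. *EPL1* lay at 19.1 to 23.6 TPM in the AtCMT3 plants (median 20.9) and 19.7 TPM in wild type. Thhalv10028463m lay at 67.1 to 83.4 TPM in the AtCMT3 plants (median 72.9) and 75.4 TPM in wild type. For these genes the wild-type level was within the range of the AtCMT3 plants, though for *EPL1* only AtCMT3-L1T3 was lower than wild type. Thhalv10024360m lay at 33.6 to 41.9 TPM in the AtCMT3 plants (median 36.6) and 32.6 TPM in wild type, so that wild type was lowest, as for *XRN4*.

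A further 6 genes were on 2 lists, Thhalv10010345m, Thhalv10000782m, Thhalv10000739m, Thhalv10019992m, *RAE1* and *ALG12*, and 5 were on the list of AtCMT3-L1T6 alone, Thhalv10024383m, Thhalv10013219m, *TNO1*, *SOX* and Thhalv10024222m. The steadiest of the 15 was Thhalv10010345m, with an SD of 0.084, at 51.8 to 62.1 TPM in the AtCMT3 plants (median 54.3) and 57.1 TPM in wild type. The most strongly expressed was *SOX*, at 168 to 214 TPM in the AtCMT3 plants (median 203) and 185 TPM in wild type. The weakest was *ALG12*, at 13.9 to 17.8 TPM in the AtCMT3 plants (median 16.7) and 14.8 TPM in wild type. Over all 15, the highest library exceeded the lowest by 1.199-fold to 1.33-fold. Wild type was the lowest library for 3 of the 15 and the highest for 0, beside backgrounds of 6.42% and 7.95% over all genes, and 15 genes are too few to read a difference from. AtCMT3-L3T2b was the highest for 8 of the 15 (22.8% over all genes), the library in which the median gene of the table was also shifted upwards.

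**Figure D5:**
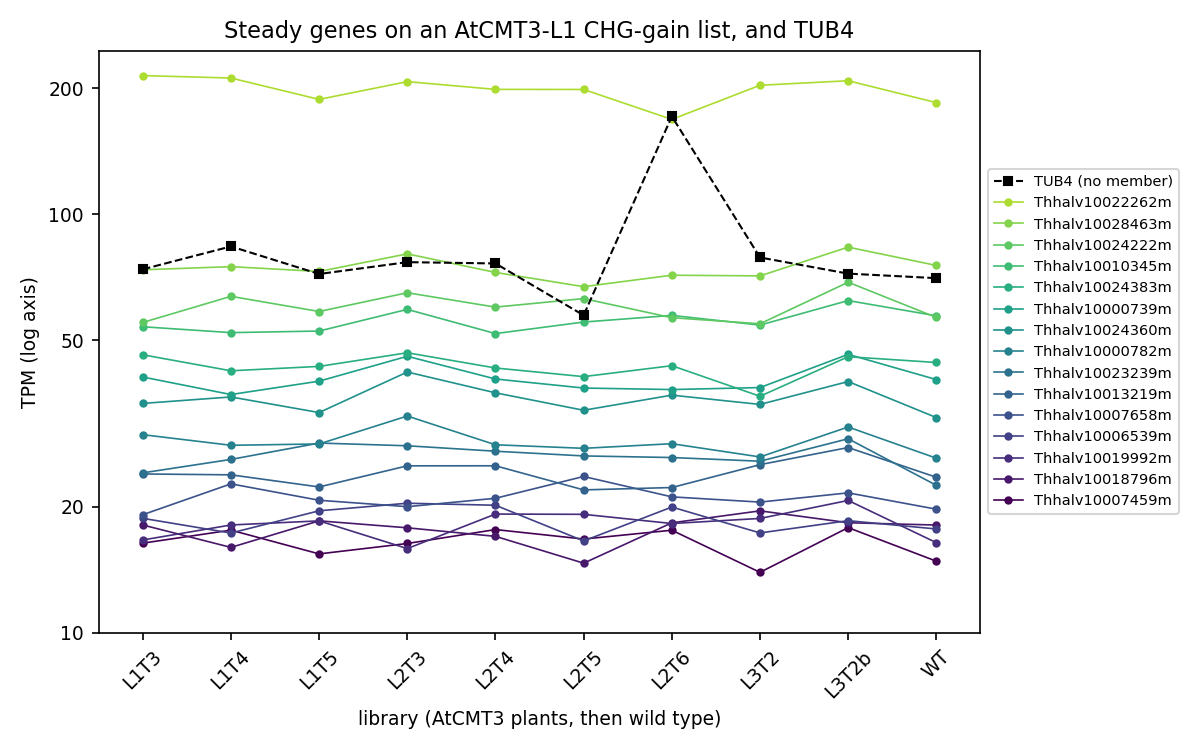
TPM on a log axis in each library, AtCMT3 plants then wild type, for the 15 steady genes on a CHG-gain list of AtCMT3-L1 (coloured, from *ALG12*, Thhalv10007459m, at the bottom to *SOX*, Thhalv10022262m, at the top) and for *TUB4* (black, dashed), which is not among the 200 genes. Each coloured line varies by at most 1.33-fold, and *TUB4* stands at 171 TPM in AtCMT3-L2T6 and between 57.3 and 83.7 TPM elsewhere.

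In the plant whose list names them, the steady genes stood close to wild type, as their choice requires. The 6 genes on the list of AtCMT3-L1T3 had log2 fold changes of -0.04 to 0.14 in that plant (median 0.06), the 4 on the list of AtCMT3-L1T4 of -0.01 to 0.21 (median 0.18), and the 9 on the list of AtCMT3-L1T5 of -0.12 to 0.34 (median 0.04). Over all listed genes that could be chosen, the medians were -0.06 for 135 genes, -0.11 for 134 genes and -0.16 for 232 genes. The median of all genes that could be chosen, on a list or not, was -0.03, -0.14 and -0.13 in these plants.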

How the data were processed

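RNA-seq values of 10 of the 41 samples were used. The authors trimmed reads, aligned them with HISAT2 (2.1.0 per the labels) to the *E. salsugineum* genome and computed expression with StringTie (1.3.3b), and deposited values for each gene under the name FPKM. By their sums, the deposited values of 5 libraries are FPKM and those that the authors deposited for the other 5 are TPM, each with a sum of 1000000. The design had assumed FPKM in every library, so all were scaled to a sum of 1000000. A pseudocount of 1 was added before log2. The 200 genes and all gene lists were chosen with earlier results of these data known. No test was run on the 200 genes, since the same values chose them.

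Genes named are the 10 steadiest, the 3 highest and 3 lowest in mean TPM, those on a CHG-gain list of AtCMT3-L1T1 to AtCMT3-L1T6, the 3 nearest the limit on each side, *TUB4*, matched reference genes, and members with an *A. thaliana* ortholog of known function, the last chosen after their values were seen. CHG-gain lists and orthologs were taken from the study's supplementary tables, lists only where held whole. Genes of like level are all other genes in the same of 10 equal bins of mean TPM. Alternatives were pseudocounts of 0.1 and 5, the coefficient of variation, the median absolute deviation, values as deposited, centring on the median gene, other limits of the mean, leaving out each library, each unit alone, and 5 or 20 bins. Groups of 200 places, lists of other lineages and *TUB4* without AtCMT3-L2T6 were added after the data were seen. The steps were tested on simulated data. The deposited ChIP-seq and bisulfite data were not analysed here, since the gene identifiers could not be placed on a genome. Methylation entered only through the CHG-gain lists, which the study called from its bisulfite sequencing. Computations ran in Python 3.11.15 with pandas 2.3.3, scipy 1.17.1 (exact intervals), matplotlib 3.10.9 and numpy 2.4.6.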

Additional observations from a re-analysis of the deposited data

How the results depend on the processing

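Which genes were chosen depended on the measure, on the scale and on the minimum of the mean. Of the 200 genes, 189 were chosen again with a pseudocount of 0.1, 161 with a pseudocount of 5, 184 by the coefficient of variation, 174 with a minimum mean of 5 TPM and 200 when none of the most strongly expressed genes was left out. With a minimum mean of 20 TPM 119 were, by the median absolute deviation 62, after centring 57, in the libraries with TPM values alone 55, in those with FPKM values alone 50 and with values as deposited, in mixed units, 2. Without a minimum of the mean 0 were, since all 200 genes chosen then averaged under 1 TPM. Leaving out 1 library kept 137 to 174 genes, and 94 were kept in all 10 such choices, among them 6 of the 15 genes on a CHG-gain list.

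The number of genes on a CHG-gain list, 15, became 5 by the median absolute deviation, 8 after centring, 7 with values as deposited, 6 in the libraries with TPM values, 6 in those with FPKM values and 2 without a minimum of the mean. The ratio to genes of like level, 2.23, became 0.70, 1.14, 1.00, 0.89, 0.88 and 0.45 under these choices. It was 1.76 to 2.55 under the other pseudocounts, minima, bins and the coefficient of variation. Leaving out 1 library gave 10 to 16 genes and ratios of 1.46 to 2.41. The cause of these differences was not tested.

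The median SD of the chosen genes, 0.10, was 0.108 and 0.086 with pseudocounts of 0.1 and 5, 0.112 with a minimum of 20 TPM, 0.085 after centring, 0.191 with values as deposited, 0.019 without a minimum, and 0.056 and 0.073 in the libraries with FPKM and TPM values alone. Leaving out 1 library gave 0.093 to 0.103. Bins that also divide genes by length could not be run, since lengths were not at hand. No paired analysis was possible because no groups were tested against each other, the description of the 200 genes resting on no test. The deposited values carry no read counts, and the share of the SD that comes from counting error was not measured.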
